A study of Mus musculus with 8 samples.

Results

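The enzymes described here build the sugar chains of gastric mucins. They are 9 genes named by symbol: the initiating transferase Galnt6, the core enzymes C1galt1 and B3gnt6, the core 1 chaperone gene C1galt1c1, the branching enzymes Gcnt1 and Gcnt3, and the capping enzymes A4gnt, Fut2 and St3gal1. All 9 were found by mouse NCBI Gene ID among the 38920 rows of each table, and all 9 passed the filter on low values that 27401 rows passed. The genes were chosen by function, with earlier results of these data known. Expression was measured in epithelial cells that had been sorted out of the C57BL/6 mouse stomach, with 4 libraries from mice on a high fat diet (HFD; libraries 22, 23, 26 and 27) and 4 from control mice, whose titles read ND (libraries 15-17-18, 16, 19 and 20). The labels give neither the length of the diet nor the age or sex of the mice. They do not say whether 15-17-18 is a pool, nor that each other library is 1 mouse. The p-values therefore weigh differences against the spread between these libraries, which may be technical.

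Mucin-type glycosylation starts in the Golgi, when a GalNAc transferase adds GalNAc to serine or threonine of the mucin protein. Galactose or GlcNAc is then added to form a core, the core may be branched with GlcNAc, and the chain is extended and capped with fucose, sialic acid, sulfate or GlcNAc. In the stomach the surface mucous cells carry fucosylated glycans on Muc5ac, and the gland mucous cells carry glycans ending in alpha-linked GlcNAc on Muc6.

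Levels are log2(value + 1) of the authors' linear values after a median-ratio scaling, which sets each library by its typical gene. A difference is HFD minus control on this log2 scale, and an enzyme counts as called at a limma p adjusted over all rows (Benjamini-Hochberg) under 0.05. The scaling bears on every difference: the median tested row differed by 0.90 as deposited and by 0.12 after it. The 20 highest rows held 85.7% of the summed value in control 15-17-18, 59.1% in control 19 and 27.8% to 43.1% in the other 6 libraries. Estimated depth was 31.4 to 46.0 M reads in HFD and 16.4 to 63.2 M in control libraries. By that estimate the B3gnt6 values rest on 7 to 44 reads a library, and every value of the other 8 enzymes on at least 97.

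Promoter sequence was at hand for 4 of the 9 genes (C1galt1, A4gnt, Galnt6 and Gcnt1, in RefSeq windows of GRCm38.p6, the assembly also called mm10). A pair is shown, the core 1 synthase that almost every cell uses and the gland mucous enzyme with the largest difference below, since their base composition differs widely. Each run is the 250 bases before the RefSeq start, 5′ to 3′ on the gene's strand; the start used for A4gnt lies inside the gene span given below. Capitals mark matches on either strand to the TATA box TATAAA, to the GC box GGGCGG, to the CCAAT box, or to the GATA motif AGATAA.

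C1galt1 (chr6:7844974-7845223, + strand): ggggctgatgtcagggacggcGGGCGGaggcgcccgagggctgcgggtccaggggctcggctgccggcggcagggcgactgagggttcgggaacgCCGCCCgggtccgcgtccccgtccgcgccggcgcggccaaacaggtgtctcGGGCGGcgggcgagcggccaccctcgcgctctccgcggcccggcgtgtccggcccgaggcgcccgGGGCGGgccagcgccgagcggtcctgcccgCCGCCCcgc
A4gnt (chr9:99612252-99612501, + strand): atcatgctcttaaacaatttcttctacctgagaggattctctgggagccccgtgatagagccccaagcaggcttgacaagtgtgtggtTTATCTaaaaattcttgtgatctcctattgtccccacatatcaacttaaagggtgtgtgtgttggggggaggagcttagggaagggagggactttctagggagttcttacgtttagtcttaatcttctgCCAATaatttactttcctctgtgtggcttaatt

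The C1galt1 window is 82.8% G and C and holds 5 GC boxes, a motif present in 32.7% of all 32851 windows of this length. The A4gnt window is 43.6% G and C, against a median of 52.4% over all windows. It holds no GC box, 1 CCAAT match (33.8% of windows have one) whose 5′ end lies 33 bases before the start, and 1 GATA match (9.99% of windows) 162 bases before it. TATAAA, found in 12.4% of windows, is in neither. The 2 Galnt6 windows are 72.8% and 59.6% G and C, and the 3 Gcnt1 windows 40.4%, 55.6% and 51.6%. These matches describe letters, and binding was not measured.

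None of the 9 enzymes was called higher or lower in HFD. The share of all tested rows called was 0.0109% after median-ratio scaling (3 of 27401) and 0.0584% as deposited (16 of 27401), so a count of 0 in 9 genes is near the background. At an unadjusted limma p under 0.05 there was 1 enzyme, A4gnt, on a background of 10.6% of rows. After scaling 4 differences were above 0 and 5 below, with a median of 0.00, while 60.1% of all tested rows were above 0. As deposited all 9 were above 0, with a median of 0.85 against 0.90 over all rows. The groups overlapped for every enzyme after scaling, while all HFD libraries lay above all controls in 4.76% of tested rows and below them in 3.09%.

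**Figure D1:**
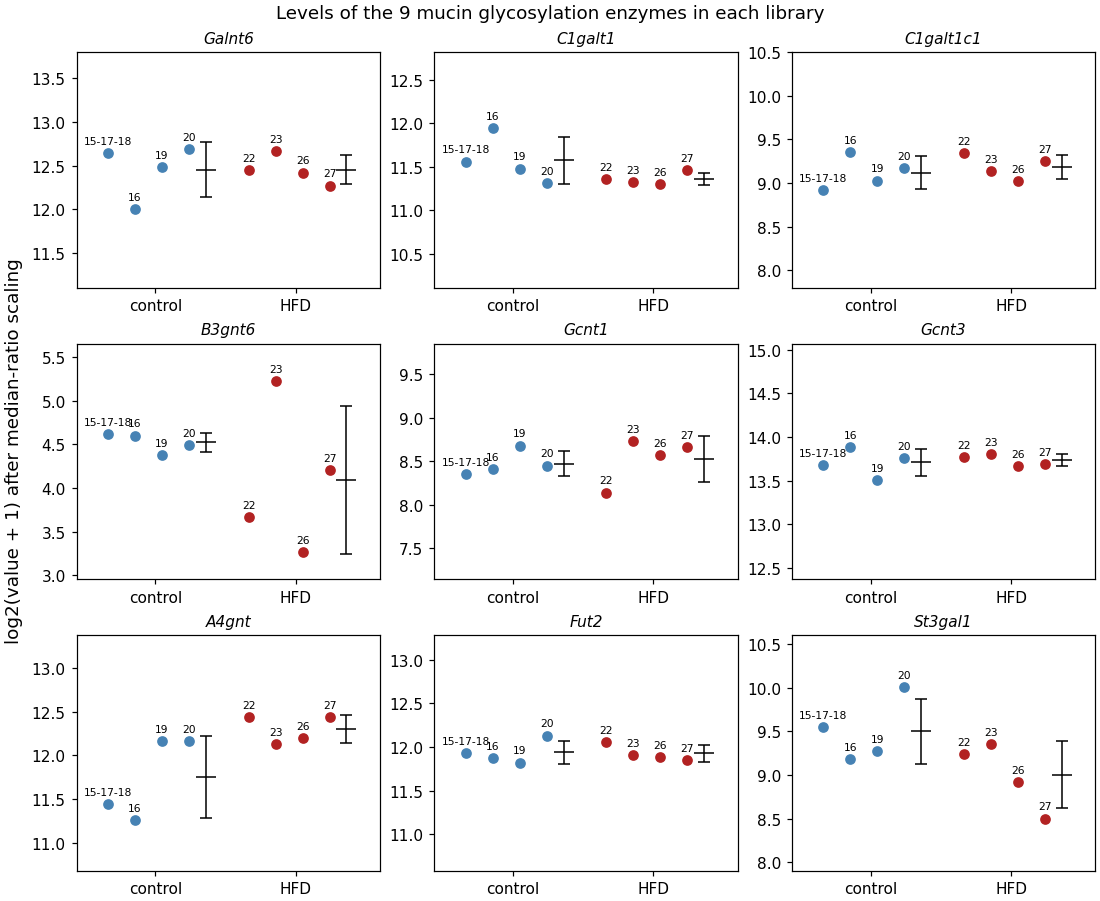
Level of each enzyme, log2(value + 1) after median-ratio scaling, in the 4 control (blue) and 4 HFD (red) libraries; numbers name the library, and the bar beside each group is its mean with 1 SD. Every panel spans the same height. The groups overlap in every panel, and A4gnt is low in controls 15-17-18 and 16, at 11.44 and 11.26.

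Initiation was represented by Galnt6 (chromosome 15, 100689915 to 100729376), one of the GalNAc transferases that place the first sugar. Galnt6 stood at 12.45, 12.67, 12.42 and 12.27 in HFD 22, 23, 26 and 27, and at 12.64, 12.00, 12.48 and 12.69 in control 15-17-18, 16, 19 and 20. Control 16 was the lowest library and control 20 the highest, so the HFD values lay inside the control range. The group means were the same to 2 decimals, 12.45 ± 0.16 for HFD against 12.45 ± 0.32 for control libraries (SD, n = 4), with a difference whose 95% interval ran from -0.36 to 0.36. The gene Galnt6os lies on the other strand within this locus, and whether counting used strand is not given in the sources used here.

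Core 1 synthesis needs the galactosyltransferase C1galt1 (chromosome 6, 7845224 to 7872042) and its dedicated chaperone C1galt1c1, also called Cosmc (chromosome X, 38630783 to 38635143), without which the enzyme is degraded. C1galt1 was at 11.36, 11.32, 11.30 and 11.46 in HFD and at 11.56, 11.94, 11.48 and 11.31 in control, libraries in the order above. Control 16 was the highest, 3 of 4 controls lay above all HFD libraries, and control 20 lay among them. The difference was -0.21 ± 0.14 (SE; limma adjusted p = 0.60). It was -0.09 without control 16, -0.30 without control 20 and -0.02 with libraries scaled to the total without the 20 highest rows. Gm43961 and Gm43962 overlap the C1galt1 locus.

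C1galt1c1 stood at 9.34, 9.14, 9.02 and 9.25 in HFD and at 8.92, 9.36, 9.03 and 9.17 in control. The libraries were interleaved, and the difference was 0.07 ± 0.14 (SE), with a 95% interval of -0.24 to 0.37. The enzyme was above its chaperone in every library when the 2 genes were compared as a ratio within the library, at a log2 ratio of 2.02, 2.18, 2.28 and 2.21 in HFD and of 2.64, 2.58, 2.46 and 2.14 in control, before any correction for length. This ratio does not depend on the scaling. It was lower in HFD by 0.28 on average, with control 20 inside the HFD range, and did not pass the test (exact two-sided permutation p = 0.114, adjusted over 6 ratios 0.343).

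Core 3 is made by B3gnt6 (chromosome 7, 98192415 to 98199475), best known as an enzyme of colonic mucins. B3gnt6 was the lowest of the 9 and the least precise, with scaled values of 11.7, 36.2, 8.61 and 17.4 in HFD and 23.5, 23.3, 19.9 and 21.5 in control on the linear scale. The controls lay close together, while the HFD libraries spread on either side of them, with HFD 23 the highest of the 8 and HFD 26 the lowest. The log2 SD was 0.84 in HFD and 0.11 in control; this contrast of spreads was not tested. The difference was -0.43 ± 0.55 (SE; limma adjusted p = 0.79), and its size rested on single libraries: -0.81 without HFD 23, -0.30 without HFD 22 and -0.16 without HFD 26. It was -0.26 at a pseudocount of 10. HFD 23 was also the highest library for the intestinal marker list, at a mean level of 9.07 against 7.52 to 8.67 in the other HFD libraries and 6.69 to 7.59 in control, and for the neck list, at 13.23 against 11.14 to 11.96 in the other 7. HFD 22 was the next library on both lists, at 8.67 and 11.96, while its B3gnt6 value of 11.7 lay below every control. The part of these cells in the B3gnt6 values was not tested.

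B3gnt6 set against C1galt1, core 3 against core 1, gave log2 ratios of -7.69, -6.10, -8.04 and -7.26 in HFD and -6.95, -7.33, -7.10 and -6.82 in control. Core 1 enzyme RNA therefore exceeded core 3 enzyme RNA in all 8 libraries, before correction for length. The groups overlapped and differed by -0.22 (exact two-sided permutation p = 0.657, adjusted over 6 ratios 0.789).

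Branching was represented by Gcnt3 (chromosome 9, 70031495 to 70039890), the mucin-type enzyme that makes core 2 and core 4 branches, and Gcnt1 (chromosome 19, 17326141 to 17372844), the leukocyte-type core 2 enzyme. Gcnt3 stood at 13.77, 13.81, 13.67 and 13.69 in HFD and at 13.68, 13.89, 13.51 and 13.76 in control. All HFD values lay inside the control range, and the difference was 0.03 ± 0.10 (SE), with a 95% interval of -0.21 to 0.26. Over the 8 libraries Gcnt3 varied with an SD of 0.11.

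Gcnt1 was at 8.14, 8.73, 8.57 and 8.66 in HFD and at 8.35, 8.41, 8.68 and 8.45 in control. HFD 22 was the lowest library and HFD 23 the highest, with every control between them. The difference was 0.05 ± 0.17 (SE), with a 95% interval of -0.32 to 0.42. The log2 ratio of Gcnt3 to Gcnt1 was 5.64, 5.08, 5.10 and 5.03 in HFD and 5.34, 5.48, 4.82 and 5.30 in control, so the mucin-type enzyme led in every library, and the groups differed by -0.02 (exact two-sided permutation p = 0.914).

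A4gnt (chromosome 9, 99591179 to 99622367) adds the terminal alpha-linked GlcNAc of gland mucus, a glycan known to inhibit growth of Helicobacter pylori. A4gnt stood at 12.44, 12.13, 12.20 and 12.44 in HFD and at 11.44, 11.26, 12.16 and 12.16 in control. Controls 15-17-18 and 16 were low, and controls 19 and 20 lay just above the lowest HFD library. The difference was the largest of the 9 in size, 0.55 ± 0.21 (SE; 95% interval 0.07 to 1.03), and was not called (limma adjusted p = 0.415; the interval leaves out 0 before adjustment). It was 0.44 without control 15-17-18, 0.38 without control 16 and 0.68 without control 19 or without control 20. As deposited the 4 HFD libraries, at 12.75, 12.63, 12.68 and 12.86, all lay above the controls, at 9.16, 11.93, 11.82 and 12.39, as they did in 7.82% of tested rows, and the adjusted p was 0.504.

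Some marker lists followed the same division of the controls, and others did not. Mean levels in control 15-17-18, 16, 19 and 20 were 11.34, 11.73, 12.21 and 12.35 for chief cell markers, 3.79, 4.30, 7.01 and 6.94 for forestomach squamous markers, and 6.29, 5.80, 7.65 and 6.96 for smooth muscle markers. In HFD these lists ran from 12.65 to 12.92, from 6.88 to 8.28 and from 8.07 to 8.62. Within the chief cell list, Pgc, Cckar and Bhlha15 did not show the division. The tuft cell list ran the other way, at 9.09, 8.52, 7.94 and 8.25 in the same controls, as did the surface mucous and leukocyte lists. The endothelial list, at 7.40, 6.48, 8.29 and 6.82, did not follow it. The neck list, of the cells that use A4gnt, was at 11.18, 11.14, 11.53 and 11.63 in the controls and 11.32 to 13.23 in HFD. Within it Muc6 and Cftr did not show the division. Differences were above 0 for 6 of 6 tested chief cell, 9 of 9 squamous, 9 of 9 muscle and 3 of 4 neck markers, and no marker of these lists was at 0 in all libraries. The part of such cells in the A4gnt values was not tested, and in bulk RNA fewer cells of a type and less RNA per cell cannot be told apart.

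A4gnt set against Muc6, the gland mucin that carries its product, gave log2 ratios of -1.95, -2.98, -0.94 and -1.10 in HFD and -4.33, -2.23, -1.69 and -1.96 in control. Control 15-17-18 was the lowest and HFD 23 the next, each with a high Muc6 level (15.77 and 15.10, against 13.13 to 14.39 elsewhere). The groups overlapped and differed by 0.81 (exact two-sided permutation p = 0.343, adjusted over 6 ratios 0.514), or by 0.22 without control 15-17-18.

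Fut2 (chromosome 7, 45648591 to 45666394) is the secretor-type fucosyltransferase that gives surface mucus its H antigens. Fut2 stood at 12.06, 11.91, 11.88 and 11.85 in HFD and at 11.93, 11.87, 11.82 and 12.13 in control. It was as even as Gcnt3, with an SD of 0.11 over the 8 libraries, and the controls spanned the HFD values. The difference was -0.01 ± 0.10 (SE), with a 95% interval of -0.24 to 0.22.

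Muc5ac, the surface mucin that carries these fucosylated glycans, was not as even. It stood at 15.61, 15.63, 15.58 and 15.97 in HFD and at 18.31, 17.53, 16.48 and 16.89 in control, with no overlap, and differed by -1.61 ± 0.35 (SE), which was not called (limma adjusted p = 0.204). As deposited the groups overlapped, since controls 15-17-18 and 19 stood at 16.03 and 16.15 and the HFD libraries at 15.91 to 16.38. The deposited difference was -0.75 (limma adjusted p = 0.537). The log2 ratio of Fut2 to Muc5ac was -3.55, -3.71, -3.69 and -4.12 in HFD and -6.38, -5.66, -4.66 and -4.76 in control. Every HFD library lay above every control, by 1.60 on average, a contrast that rescaling a whole library leaves as it is. The exact two-sided permutation p was 0.0286, the smallest that 4 libraries against 4 allow, and 0.171 adjusted over 6 ratios. It did not pass, but 1 ratio without overlap, alone among the 6, cannot fall under 0.05 after this adjustment. The adjusted value therefore does not decide on this contrast. Leaving out 1 library at a time gave 1.26 to 1.83. Of the other 4 surface mucous genes tested, all with overlapping groups, Mucl3 differed by -0.45 ± 0.21, Tff1 and Gkn1 by -0.12 ± 0.29 each and Gkn2 by 0.07 ± 0.26 (SE). Mucl3, like Muc5ac, was highest in controls 15-17-18 and 16, at 15.80 and 16.02.

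St3gal1 (chromosome 15, 67102875 to 67176946) caps core 1 with sialic acid and so competes with the core 2 enzymes for the same substrate. St3gal1 was at 9.24, 9.35, 8.92 and 8.50 in HFD and at 9.55, 9.18, 9.27 and 10.01 in control. Control 20 was the highest and HFD 27 the lowest, while HFD 22 and 23 lay among the controls. The difference was -0.50 ± 0.23 (SE; 95% interval -1.02 to 0.02) and was not called (limma adjusted p = 0.488). It was -0.33 without HFD 27, the same without control 20, -0.62 without HFD 23, and 0.35 as deposited.

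Set against Gcnt1, its competitor for core 1, St3gal1 gave log2 ratios of 1.10, 0.61, 0.35 and -0.16 in HFD and 1.20, 0.76, 0.58 and 1.56 in control. HFD 27 was the library in which Gcnt1 exceeded St3gal1 before correction for length. The groups overlapped and differed by -0.55 (exact two-sided permutation p = 0.171, adjusted over 6 ratios 0.343), or by -0.34 without HFD 27 and -0.37 without control 20.

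**Figure D2:**
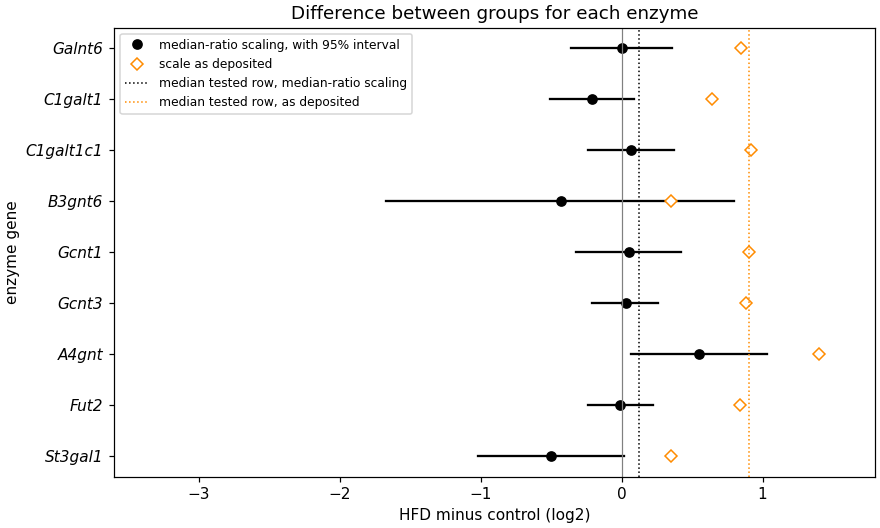
HFD minus control (log2) for each enzyme: filled points with lines are the difference after median-ratio scaling with its 95% limma interval, open diamonds the difference as deposited, and dotted lines the median tested row on each scale (0.12 and 0.90). The deposited values lie around the shift of the typical row, and A4gnt is highest on either scale, at 0.55 and 1.40.

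**Figure D3:**
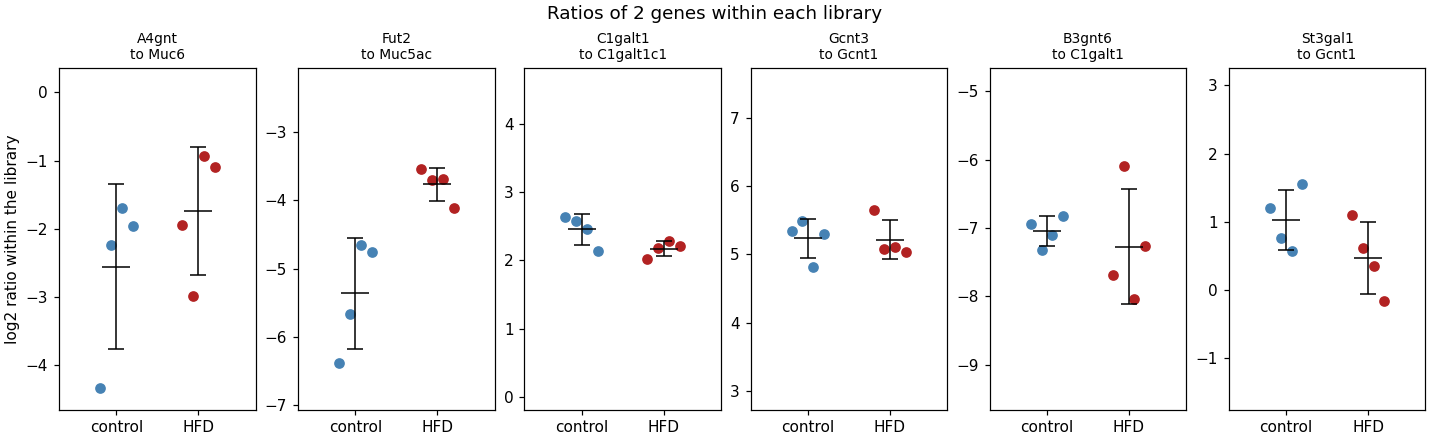
Log2 ratio of 2 genes within each library for the 6 pairs (4 control and 4 HFD points each, bars give the mean with 1 SD); every panel spans the same height. Fut2 to Muc5ac is the pair whose groups do not overlap, with means of -5.37 in control and -3.77 in HFD.

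Divided by exon length (GENCODE M21, basic set), the 9 enzymes fell into tiers. The geometric mean of the scaled value per kilobase was 3144 for Gcnt3, 1514 for A4gnt, 1447 for Galnt6, 1320 for Fut2, 464 for C1galt1, 392 for C1galt1c1, 105 for St3gal1, 73.7 for Gcnt1 and 7.88 for B3gnt6. Gcnt3 exceeded A4gnt, Fut2 exceeded C1galt1, C1galt1c1 exceeded St3gal1, and Gcnt1 exceeded B3gnt6 in 8 of 8 libraries. Between neighbours within a tier the order was not fixed: A4gnt exceeded Galnt6 in 4 of 8 libraries (log2 difference per kilobase 0.07 ± 0.43, SD, n = 8). Galnt6 exceeded Fut2, C1galt1 exceeded C1galt1c1 and St3gal1 exceeded Gcnt1 in 7 of 8 each.

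Across the 8 libraries 6 of the 9 enzymes varied less than the typical row. Their SD was 0.11 for Fut2 and Gcnt3, 0.16 for C1galt1c1, 0.20 for Gcnt1, 0.21 for C1galt1 and 0.23 for Galnt6, against a median of 0.29 over the 13139 tested rows with a mean scaled value of at least 100. A4gnt and St3gal1 were above it, each at 0.44. B3gnt6 was at 0.60, but its scaled values were below 100 in every library, so it is not among those rows. The rows were not matched to the enzymes by level.

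Genes with the most similar profiles were sought among 12702 named rows with a mean value of at least 100, by the root mean square difference of profiles in units of each gene's own SD over the 8 libraries. The nearest pair was Pgghg (0.17) and Sardh (0.21) for A4gnt, and Itga7 and Sgpl1 (0.23 each) for C1galt1. For Fut2 it was Hid1 (0.24) and Inpp5k (0.32), for Gcnt3 Cdan1 (0.25) and Mmp15 (0.30), and for B3gnt6 Tacc2 (0.27) and Arfgef2 (0.33). For Galnt6 it was Actr8 (0.28) and Anks6 (0.35), for St3gal1 AB124611 (0.30) and Git1 (0.31), and for C1galt1c1 Arl5a (0.31) and Adipor1 (0.36). Gcnt1 had the least close match, with Zmat2 (0.46) and Wdr74 (0.47). With 8 libraries and this many rows, close matches are easily found.

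The other genes of O-glycosylation gave a similar picture. Of 97 genes in 6 lists, all 97 were tested, none was called on either scale, and 9 had an unadjusted limma p under 0.05, 5 higher and 4 lower, which is 9.28% against the background of 10.6%. The median difference was 0.09. Differences were above 0 for 68.0% of the 97 genes, against 60.1% of all tested rows. All HFD libraries lay above all controls for 7 genes (7.22%, against 4.76% of all rows) and below for 2 (2.06%, against 3.09%). These shares are descriptions, with no test of the lists.

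Among the 18 other initiating GalNAc transferases, 15 differences were above 0, with a median of 0.08. Galnt17, a member mainly of nervous tissue, averaged 6.11 ± 1.01 in HFD against 4.31 ± 0.75 in control libraries (SD, 4 libraries each), a difference of 1.79 ± 0.59 (SE) without overlap between groups (limma adjusted p = 0.337). HFD 23, at 7.60, was its highest library, against 5.32 to 5.78 in the other HFD libraries and 3.58 to 5.24 in control, and the difference was 1.30 without it. Galntl6 and Galnt1 differed by -0.73 ± 0.37 and 0.16 ± 0.11 (SE), with overlapping groups; Galntl6 was at -0.36 without control 15-17-18 and Galnt1 at 0.09 without control 19.

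Of the 20 chain branching and extension genes 10 differences were above 0 and 10 below. B4galt6, a galactosyltransferase best known for glycolipids, was lower in all HFD libraries (9.97 to 10.26) than in any control (10.44 to 10.57), by -0.35 ± 0.11 (SE; limma adjusted p = 0.302). B4galt5, its close relative, differed by -0.40 ± 0.16 and B4galt3 by 0.30 ± 0.15 (SE). In the 13 fucose and blood group genes, 7 differences were above 0. B4galnt3, which makes the GalNAc-GlcNAc unit found on gastric mucins, averaged 12.50 ± 0.16 in HFD against 12.87 ± 0.29 in control libraries (SD, 4 libraries each), with overlap. Fut1, the fucosyltransferase related to Fut2, was low, at 3.08 to 3.75 in HFD and 0.00 to 2.80 in control, a difference of 1.57 that was 0.95 without control 15-17-18. B4galnt2, the Sda antigen enzyme, differed by -0.56 ± 0.29 (SE), or by -0.30 without control 16.

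The 13 other sialyltransferases had the highest median of the 6 lists, 0.34, with 9 differences above 0 and 0 called. This median rested on HFD 23. Without that library St6gal1, St6gal2 and St6galnac5 turned from above 0 to below it, at -0.11, -0.58 and -0.45, and the other differences above 0 stayed so. St3gal3 lay lower in every HFD library (7.93 to 8.34) than in any control (8.43 to 8.76), by -0.52 ± 0.15 (SE; limma adjusted p = 0.280). The St3gal genes did not share a side: St3gal2 and St3gal5 were also below 0, at -0.13 and -0.21. St3gal4 and St3gal6 were above it, at 1.10 and 0.29. St6galnac2, which sialylates GalNAc, lay higher in every HFD library (9.93 to 10.25) than in any control (9.67 to 9.90), by 0.34 ± 0.11 (SE; adjusted p = 0.342), and St6galnac4, low in all libraries, by 1.06 ± 0.44 (SE). Among the 9 sulfotransferases 6 differences were above 0, with the smallest p for Chst5, Chst1 and Gal3st3, at 1.89 ± 0.85, 1.19 ± 0.69 and 1.44 ± 1.15 (SE). HFD 23 was the highest library for each of these 3, and without it the differences were 1.39, 0.64 and 0.23. Chst5 and Gal3st3 were low in control, at 0.00 to 2.19 and 1.81 to 4.17. The Chst5 difference was also 1.39 without control 15-17-18.

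Of the 24 genes for sugar donors 19 differences were above 0, with a median of 0.13, that of the typical row being 0.12. Gne, the first enzyme of sialic acid synthesis, was at 10.43, 10.39, 10.14 and 10.24 in HFD and 9.71, 9.64, 10.02 and 10.07 in control. The groups did not overlap, with controls 15-17-18 and 16 the lowest as for A4gnt, and the difference was 0.44 ± 0.13 (SE; limma adjusted p = 0.306). Pgm3, an enzyme of UDP-GlcNAc synthesis, was higher in every HFD library (8.97 to 9.09) than in any control (8.70 to 8.86), by 0.26 ± 0.11 (SE; adjusted p = 0.445). Gfus, which completes GDP-fucose, differed by 0.42 ± 0.20 (SE), or by 0.22 without control 15-17-18.

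**Figure D4:**
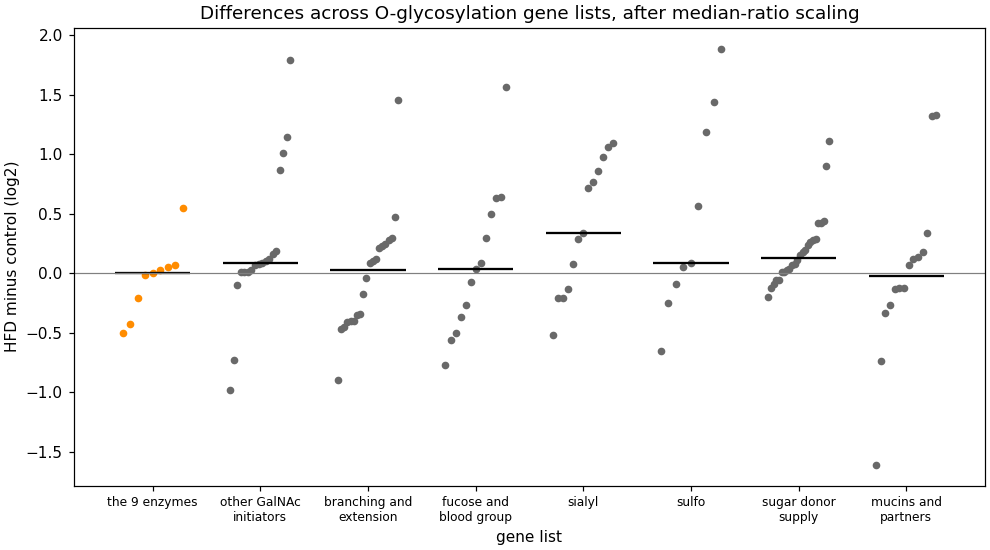
HFD minus control (log2, after median-ratio scaling) for every tested gene of the 9 enzymes (orange), the 6 other O-glycosylation lists and the mucins and their partners (grey), sorted within each list; the bar is the list's median. The medians run from -0.02 for the mucins to 0.34 for the sialyltransferases, and the lowest point is Muc5ac at -1.61.

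Of 14 tested mucins and mucous cell proteins, 7 differences were above 0, 7 below and none was called. Beside Muc5ac, Muc6 differed by -0.27 ± 0.60, the membrane mucin Muc1 by -0.33 ± 0.15 and the gland trefoil peptide gene Tff2 by 0.12 ± 0.33 (SE). Larger differences, with overlapping groups, included those of Gkn3, a gland mucous gene, at 1.32 ± 0.36, and the gel-forming mucin Muc5b at -0.74 ± 0.28 (SE; limma adjusted p = 0.275 and 0.402). Tff3, also with overlap, differed by 1.33 ± 1.04 (SE), or by 0.25 without control 15-17-18, where it was at 0.00. The neck marker Cftr, a chloride channel, differed by 1.51 ± 0.89 (SE), or by 0.53 without HFD 23. The simple epithelial markers were abundant in every library, with mean levels of 13.33 to 13.59 in HFD and 13.02 to 13.58 in control. Of the 7 markers 2 had groups that did not overlap, in opposite directions and not called: the adhesion genes Epcam, by 0.69 ± 0.14, and Cdh1, by -0.42 ± 0.12 (SE; limma adjusted p = 0.199 and 0.284). The surface mucous markers were at 16.15 to 16.79 and 16.25 to 17.26. The leukocyte markers, whose cells also use Gcnt1, were at 3.31 to 4.27 in HFD and 2.84 to 3.81 in control.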

How the data were processed

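RNA of sorted gastric epithelial cells was depleted of ribosomal RNA before library preparation (Ion Total RNA-Seq kit), per the labels' protocols. The submitters' processing notes name mm10 and bedtools 2.17.0; for aligner, annotation and normalization the sources used here give nothing. The authors deposited 1 log2 value per row and library, floored at 0, whose antilogs sum to 36.9 M in each library; a 0 was taken as 0. The tables of HFD 23 and 27 carry column headers of another form. Depth was estimated from the gap between the most frequent low values. Of values below 2000 such steps, 19.3% to 34.7% were whole within 0.01, so no count model was used. Gene IDs were matched to RefSeq (32891 of 38920).

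Linear values were divided by median ratios over the 11115 rows above 30 in all libraries. Rows with at least 1 in 4 libraries were tested with limma 3.58.1 (R 4.3.3; trend, robust) on log2(value + 1), which understates changes of low genes, with Benjamini-Hochberg adjustment; the code was tested on simulated data. Ratios of 2 genes were compared by exact permutation over 70 divisions. Intervals come from limma and are for the mean difference, with an error taken from the spread between libraries. None of the 28 library pairs held identical values. Named were all 9 enzymes, up to 3 genes per pathway list by smallest p, 5 mucous genes and the 2 nearest profiles. Gkn1, Gkn2, Gkn3, Mucl3, Muc5b, Tff3, Cftr, Epcam and Cdh1 were added after their values were seen. Leaving out each library for listed genes was added then too. St3gal2, St3gal4, St3gal5, St3gal6, St6gal1, St6gal2 and St6galnac5 also fall outside that naming rule. So do the chief cell, squamous and muscle markers named singly. The genes, lists and scale were chosen with earlier results of these data known. Alternatives covered scaling, pseudocount, filter, limma options and left-out libraries.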

Additional observations from a re-analysis of the deposited data

Results flagged for a closer look

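The log2 ratio of Gcnt3 to Gcnt1 in HFD 22, at 5.64, stood apart from the other HFD libraries, at 5.08, 5.10 and 5.03. The gap took 0.88 of the group's range, above Dixon's 95% critical value for 4 libraries. It was the only 1 of 30 sets of 4 values (9 levels and 6 ratios in each group) to pass this limit, and chance flags about 1 in 20. Gcnt1 was lowest in that library, at 8.14, and Gcnt3 was not, at 13.77.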

How the results depend on the processing

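No enzyme was called under any of the 18 alternatives, and A4gnt was above 0 (0.38 to 1.40) in all of them. The count of 3 called rows became 16 as deposited, 1 with the total taken without the 20 most abundant rows, 5 at a pseudocount of 0.5, 1 without limma's trend and robust options, 0 with no filter (2891 rows at an unadjusted limma p under 0.05, of 38920) and 2 to 5 with 1 library left out; 5 were called without control 16. Chosen after seeing the data, leaving out controls 15-17-18 and 19 together gave 0 (2959 rows at an unadjusted p under 0.05), and leaving out HFD 23 and 27 together gave 1. As deposited the sign turned for Fut2 (0.84), B3gnt6 (0.35), C1galt1 (0.64), St3gal1 (0.35) and Galnt6 (0.85), on a scale where the median row differed by 0.90. Enzymes near 0 changed sign elsewhere: under quantile normalization Fut2 (0.07), Gcnt1 (-0.05) and Galnt6 (0.07); without the 20 rows Fut2 (0.18) and Galnt6 (0.19); without both controls Gcnt3 (-0.09), C1galt1c1 (-0.08) and Galnt6 (0.11); without both HFD libraries Fut2 (0.03) and Gcnt1 (-0.12). With 1 library left out Fut2 ran from -0.05 to 0.05, Gcnt1 from -0.02 to 0.18, Gcnt3 from -0.04 to 0.09 and Galnt6 from -0.15 to 0.08, and the ratios of Gcnt3 to Gcnt1 from -0.16 to 0.06 and of B3gnt6 to C1galt1 from -0.61 to 0.03. No ratio passed in any setting; with 3 libraries against 4 the smallest p is 0.0571. B3gnt6 ran from -0.81 to -0.16 with 1 library left out and was -1.05 without both HFD libraries; its reads number 7 to 44 a library. The St3gal1 to Gcnt1 ratio ran from -0.76 to -0.34 and A4gnt to Muc6 from 0.22 to 1.22 with 1 library left out. No paired analysis was possible because the groups share no replicate numbers.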
